A study of Homo sapiens with 10 samples.

Results

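Tight junctions seal the space between neighbouring epithelial cells, and desmosomes anchor the cells to each other mechanically. The transcripts of 36 genes of these junctions were examined in untreated cells of 5 human prostate cancer cell lines. The genes were a hand-picked list of claudins, other tight junction membrane proteins, their cytoplasmic scaffolds, desmosomal cadherins and desmosomal plaque proteins, and each of the 36 was found by its symbol among the 60642 genes of the deposited table. The lines were LNCaP, from a lymph node metastasis, DUCAP and VCaP, from a dural and a vertebral metastasis of the same patient, DU145, from a brain metastasis, and PC3, from a bone metastasis. LNCaP, DUCAP and VCaP respond to androgens, whereas DU145 and PC3 grow without them. All cells grew in phenol red-free RPMI medium with fetal bovine serum, received no agent and were harvested in exponential growth. Each line was profiled by bulk RNA-seq in 2 biological repeats, which gave 10 samples. Each line is an established culture with no stroma or neighbouring cell types, and p-values here reflect only the spread between repeat cultures.

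Claudins are membrane proteins whose outer loops pair across adjoining cells and set which ions and molecules pass between them. Occludin (OCLN) and tricellulin (MARVELD2) belong to a further family of junction proteins, JAM-A (F11R) is an adhesion molecule of the immunoglobulin family, and ZO-1 (TJP1), ZO-3 (TJP3) and cingulin (CGN) tie the strands to actin. In desmosomes, the desmogleins (DSG) and desmocollins (DSC) bridge the cells, and plakophilins (PKP) and desmoplakin (DSP) link them to keratin filaments. The glands of the prostate are lined by luminal cells that carry these junctions, and basal cells lie beneath them.

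All levels are in TPM, each gene's length-scaled share of the transcripts in a sample, so that genes can be compared with each other. Differences were tested on log2(TPM + 1) in limma, with a mean for each line, and p-values were adjusted by Benjamini-Hochberg over the 17520 genes that reached 1 TPM in at least 2 samples. Differences with an adjusted p under 0.05 are called passed. Such differences understate the fold change of low genes. Of the 36 genes, 25 passed this filter. The 37 mitochondrial genes took 32.1 to 36.0% of the TPM in DUCAP and VCaP and 12.7 to 22.5% in the other lines, which lowers all other TPM values of DUCAP and VCaP. Alternatives that rescale the samples were therefore also run. The epithelial markers KRT8, KRT18 and EPCAM were at 23.4 TPM or more in every sample. Of the basal markers, KRT5 was listed at 0 in all 10 and TP63 reached at most 0.24 TPM. KRT14, also a basal marker, was at 4.56 and 3.25 TPM in VCaP and at most 0.83 TPM in the other lines. The luminal marker KLK3 was at 28.3 to 2625 TPM in LNCaP, DUCAP and VCaP and at most 0.77 TPM in DU145 and PC3. The endothelial and leukocyte markers summed to at most 5.46 and 1.43 TPM, and the fibroblast markers to 36.2 and 47.5 TPM in PC3 and at most 7.48 TPM elsewhere. ERG, which marks the gene fusion of DUCAP and VCaP, was at 122 to 199 TPM in those lines and at most 0.19 TPM in the others.

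Of the 36 genes, 17 had a mean of at least 1 TPM in every line and 7 of at least 10 TPM. All 25 tested genes differed between the lines in limma's F test (adjusted p from 5.7e-08 for PKP1 to 0.027 for CLDN15), as did 90.8% of all tested genes, so that the count says little of junction genes in particular. The median distance between the highest and the lowest line mean was 2.79 on the log2 scale for these genes and 1.69 for all tested genes. LNCaP had the highest mean for 12 of the 25, while it was highest for 26.8% of all tested genes. This count was also 12 under median-ratio scaling, quantile normalization and rescaling without mitochondrial genes, against 20.9, 22.7 and 25.1% of all genes. DUCAP had the lowest mean for 11, against 37.1% of all genes. Under these scalings DUCAP was lowest for 2, 1 and 5, against 19.8, 15.7 and 32.2% of all genes. PC3 was then lowest for 10, 11 and 10, against 21.7, 23.1 and 19.1%. Ordered by their means, the 5 lines give 4 neighbouring pairs per gene. Of these 100 steps, 41 passed the threshold in the pairwise contrasts of the same fit, against 29.6% over all tested genes. In bulk RNA, a lower share of cells with a transcript and less of it per cell cannot be told apart.

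**Figure D1:**
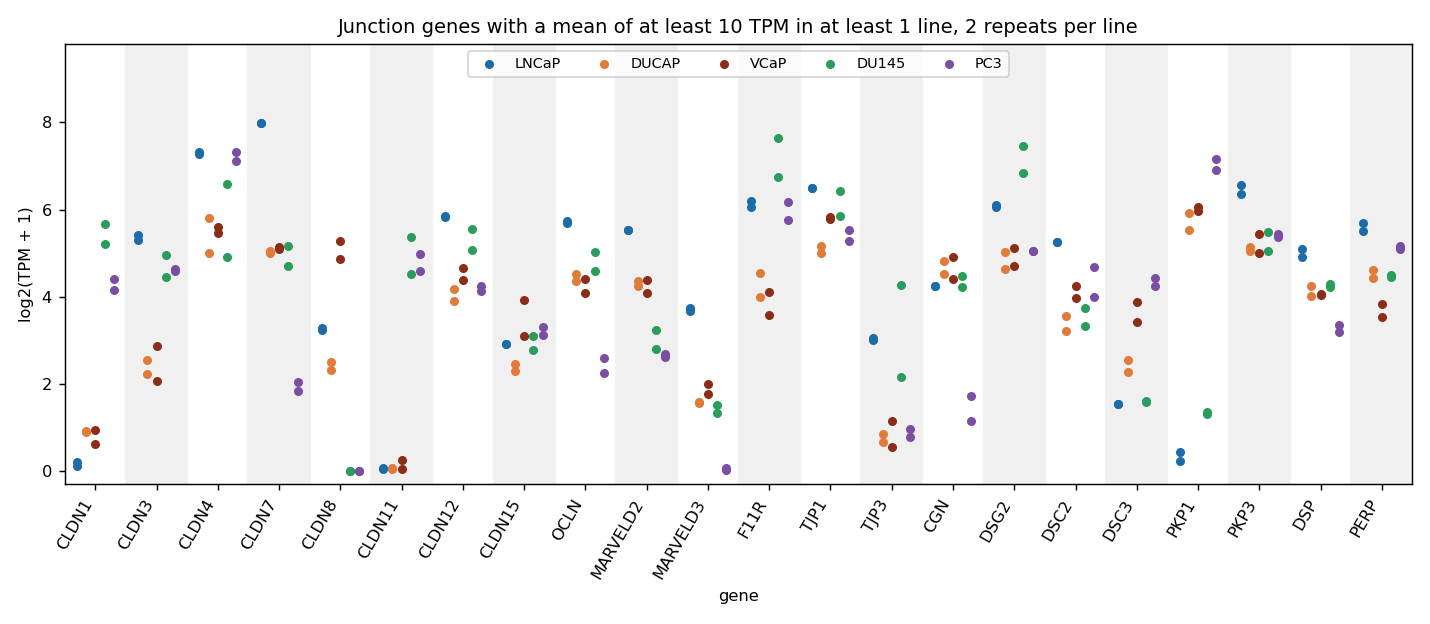
Levels of 22 junction genes as log2(TPM + 1), with 1 point per sample and 1 colour per line. CLDN1 and CLDN11 were high in DU145 and PC3 and low in the other lines, and PKP1 was low in LNCaP and DU145.

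The summed level of all 18 claudins was 525 ± 1.87 TPM in LNCaP (mean ± SD, n = 2), 253 ± 21.3 in PC3, 245 ± 49.4 in DU145, 152 ± 0.467 in VCaP and 105 ± 14.4 in DUCAP. Each line used a different mixture of them. CLDN7 made up 48.1% of the claudin TPM in LNCaP and CLDN4 another 29.9%. CLDN4 led in both repeats of PC3 (59.2 and 58.1%) and VCaP (31.3 and 28.3%). In DUCAP, CLDN4 led the first repeat (47.6%) and CLDN7 the second (34.1%). The order in DU145 also differed between the repeats, where CLDN4 led the first (33.8%) and CLDN1 the second (23.7%), in which CLDN4 fell to 14.0%. The second places were not stable either, with CLDN7 and CLDN8 changing places in VCaP and CLDN11 and CLDN3 in PC3.

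**Figure D2:**
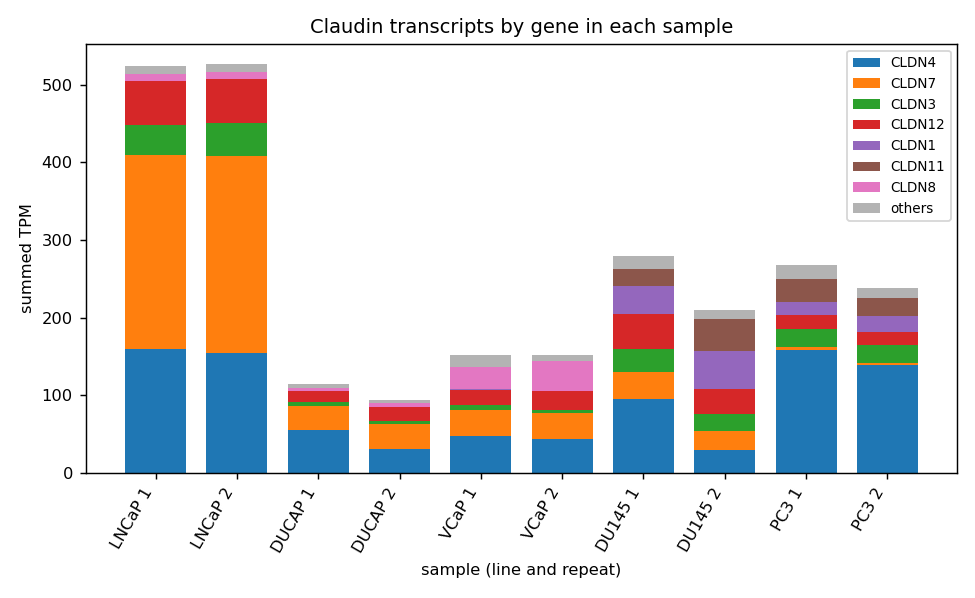
Stacked bars of the TPM of the 18 claudins in each of the 10 samples, with 7 claudins coloured and the rest in grey. The LNCaP bars reach 524 and 526 TPM and consist mostly of CLDN7 and CLDN4, whereas CLDN1 and CLDN11 fill part of the DU145 and PC3 bars and CLDN8 part of the VCaP bars.

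CLDN1 and CLDN11 set DU145 and PC3 apart from the other lines by higher levels, although CLDN4 had the largest mean share of the claudin TPM in both. CLDN1, a sealing claudin of many epithelia and of skin, was at 35.9 and 49.6 TPM in DU145 and at 16.7 and 20.3 TPM in PC3, against 0.88 and 0.86 TPM in DUCAP, 0.54 and 0.93 in VCaP and 0.15 and 0.08 in LNCaP. CLDN11, best known from myelin and from Sertoli cells, was at 21.9 and 40.7 TPM in DU145, 30.4 and 23.1 in PC3, 0.20 and 0.03 in VCaP and 0.04 and 0.06 in both LNCaP and DUCAP. For both genes the 4 samples of DU145 and PC3 lay above all 6 others. The log2 difference between the mean of DU145 and PC3 and the mean of the other 3 lines was 4.24 for CLDN1 (standard error 0.13, adjusted p = 4.2e-08) and 4.77 for CLDN11 (standard error 0.18, adjusted p = 9.8e-08, limma). CLDN1 was higher in DU145 than in PC3 by 1.15 on this scale (adjusted p = 0.002), and the 2 lines were not separated for CLDN11 (0.17, adjusted p = 0.66), although they were without DU145 repeat 1 (0.60, adjusted p = 0.039). On the genome, CLDN1 lies on chromosome 3 (190305707 to 190322446 in GRCh38.p14) within the span of CLDN16 (190290361 to 190412138). CLDN16, a claudin of the kidney, was at most at 0.38 TPM, and the libraries were strand-specific.

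CLDN8, which limits cation leak in the distal nephron, showed the opposite pattern. It was listed at 0 in all 4 samples of DU145 and PC3 and was present at 28.4 and 37.8 TPM in VCaP, 8.39 and 8.75 in LNCaP and 4.01 and 4.72 in DUCAP. VCaP exceeded DUCAP by 2.66 on the log2 scale (DUCAP minus VCaP −2.66, standard error 0.17, adjusted p = 4.3e-05), the largest difference among the 25 genes between these lines of the same patient. LNCaP lay between them, and its steps to VCaP (1.82, adjusted p = 4.2e-05) and to DUCAP (0.84, adjusted p = 0.003) both passed.

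CLDN7, a claudin of the basolateral side of simple epithelia, set LNCaP and PC3 apart at either end. It was at 251 and 254 TPM in LNCaP, 33.2 and 34.3 in VCaP, 31.3 and 32.2 in DUCAP, 34.8 and 25.2 in DU145 and 3.11 and 2.59 in PC3, so that LNCaP had 88.6 times the mean level of PC3. DUCAP, VCaP and DU145 did not differ from their neighbours in the order (log2 differences of 0.09 and 0.10, adjusted p = 0.81 and 0.63), while the steps from LNCaP to VCaP (2.87, adjusted p = 3.5e-06) and from DU145 to PC3 (2.99, adjusted p = 2.9e-06) passed the threshold (limma).

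CLDN3 and CLDN4, the receptors of the Clostridium perfringens enterotoxin, lie 60.7 kb apart on chromosome 7. CLDN3 was at 38.7 and 41.9 TPM in LNCaP, 29.9 and 20.8 in DU145, 23.1 and 23.9 in PC3, 6.36 and 3.19 in VCaP and 4.88 and 3.67 in DUCAP. LNCaP exceeded DUCAP and VCaP by 2.93 on the log2 scale (standard error 0.24, adjusted p = 1.6e-05), and LNCaP also exceeded PC3 (0.75, adjusted p = 0.048), although neither neighbouring step among LNCaP, DU145 and PC3 passed. CLDN4 was at 159 and 155 TPM in LNCaP, 159 and 138 in PC3, 94.5 and 29.3 in DU145, 54.6 and 31.2 in DUCAP and 47.4 and 43.0 in VCaP. It was the claudin with the largest gap between repeats, in DU145. Its excess in LNCaP over DUCAP and VCaP was 1.84 (adjusted p = 0.004, and 0.050 after quantile normalization). Its deficit in DU145 against PC3 was −1.47 (adjusted p = 0.03), and without DU145 repeat 2 it was −0.64 (adjusted p = 0.11). This call was also lost under other alternatives, given with the processing.

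CLDN12 was at 56.4 and 56.9 TPM in LNCaP, 45.7 and 32.4 in DU145, 20.02 and 24.4 in VCaP, 17.95 and 16.5 in PC3 and 14.0 and 17.3 in DUCAP. The steps from LNCaP to DU145 (0.54, adjusted p = 0.041) and from DU145 to VCaP (0.77, adjusted p = 0.0075) passed, and the 3 lowest lines were not separated. CLDN15, which forms cation channels in the intestine, was at 14.2 and 7.53 TPM in VCaP, 8.93 and 7.73 in PC3, 7.62 and 5.91 in DU145, 6.53 and 6.54 in LNCaP and 4.49 and 3.88 in DUCAP. None of its 4 steps passed, and only the distance of DUCAP from VCaP did among the 4 contrasts (−1.14, adjusted p = 0.021). Without VCaP repeat 1 it was −0.72 (adjusted p = 0.077), and the call was also lost without any 1 of the LNCaP and DUCAP samples (adjusted p = 0.051 to 0.11). CLDN14, a claudin of the inner ear, was at 8.22 and 4.41 TPM in PC3, 0.13 and 0.04 in LNCaP and listed at 0 in the other lines. CLDN23 ranged from 0.28 TPM in DUCAP to 5.81 TPM in DU145, and its means fell from DU145 to LNCaP (0.63, adjusted p = 0.0075) and from LNCaP to PC3 (1.28, adjusted p = 0.00014), below which the lines were not separated.

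The other 8 claudins did not pass the filter on low values. CLDN18, a claudin of stomach and lung, and CLDN19, of kidney and retina, were listed at 0 in all samples. The highest sample was at 0.54 TPM for CLDN2, which forms cation pores in leaky epithelia, at 0.07 for CLDN5, the claudin of endothelium, at 0.16 for the embryonic claudin CLDN6, at 0.38 for CLDN16, at 0.92 for CLDN10 and at 1.35 for CLDN9. Apart from CLDN6, those listed above 0 had their highest line mean in DU145. These levels were low, and most came largely from DU145 repeat 1. Repeats 1 and 2 of DU145 were at 0.54 and 0.11 TPM for CLDN2 and 1.35 and 0.44 for CLDN9. They were at 0.38 and 0.03 for CLDN16, 0.07 and 0 for CLDN5, and 0.92 and 0.75 for CLDN10.

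Occludin and the related MARVEL proteins were highest in LNCaP and lowest in PC3. MARVELD2, tricellulin, which seals the corners where 3 cells meet, was at 45.6 and 45.02 TPM in LNCaP, 16.1 and 19.8 in VCaP, 18.1 and 19.6 in DUCAP, 8.41 and 5.96 in DU145 and 5.42 and 5.17 in PC3. MARVELD3 was at 11.7 and 12.4 TPM in LNCaP, 2.43 and 3.02 in VCaP, 1.96 and 1.99 in DUCAP, 1.87 and 1.54 in DU145 and 0.02 and 0.06 in PC3. For both genes all 4 samples of DU145 and PC3 lay below the other 6, although for MARVELD3 the highest DU145 sample and the lowest DUCAP sample differed by little and these lines were not separated (0.14, adjusted p = 0.43). The log2 difference of DU145 and PC3 from the other lines was −1.86 for MARVELD2 (standard error 0.12, adjusted p = 1.7e-06) and −1.65 for MARVELD3 (standard error 0.10, adjusted p = 1.1e-06, limma). OCLN, 48.2 kb from MARVELD2 on chromosome 5, was at 50.6 and 52.6 TPM in LNCaP, 31.8 and 23.0 in DU145, 19.7 and 21.9 in DUCAP, 15.96 and 20.4 in VCaP and 5.07 and 3.77 in PC3. Its steps from LNCaP to DU145 (0.91, adjusted p = 0.0056) and from VCaP to PC3 (1.82, adjusted p = 7.7e-05) passed. OCLNP1, a partial copy of OCLN between which and OCLN RSEM had to divide reads, was at 22.3 and 24.3 TPM in LNCaP and at most 2.69 TPM elsewhere, so the OCLN level of LNCaP is uncertain.

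F11R, or JAM-A, ran in another order. It was at 199 and 107 TPM in DU145, 65.8 and 72.5 in LNCaP, 53.6 and 71.4 in PC3, 15.1 and 22.2 in DUCAP and 10.96 and 16.2 in VCaP. Neither LNCaP and PC3 (0.16, adjusted p = 0.71) nor DUCAP and VCaP (0.43, adjusted p = 0.43) were separated. DU145 exceeded LNCaP by 1.07 (adjusted p = 0.022), and its contrast with PC3 was 1.22 (adjusted p = 0.014) and was 0.78 without DU145 repeat 1 (adjusted p = 0.074) and 1.02 without PC3 repeat 1 (adjusted p = 0.11).

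Among the scaffolds, cingulin was the one that was low in PC3 alone. CGN was at 1.23 and 2.29 TPM in PC3, against 28.9 and 20.4 in VCaP, 22.2 and 27.2 in DUCAP, 17.6 and 21.4 in DU145 and 17.97 and 17.94 in LNCaP. The 4 other lines were not separated from their neighbours, and the step down to PC3 was 2.81 on the log2 scale (adjusted p = 2e-05). TJP1, which encodes the core scaffold ZO-1, was the most even of the 3, at 89.3 and 89.7 TPM in LNCaP, 56.5 and 85.6 in DU145, 54.5 and 56.0 in VCaP, 45.3 and 38.0 in PC3 and 31.1 and 34.6 in DUCAP. None of its steps between neighbours passed, whereas LNCaP exceeded DUCAP and VCaP by 1.05 (adjusted p = 0.00066, and 0.051 after median-ratio scaling at a difference of 0.40). TJP3, for ZO-3, was at 18.5 and 3.47 TPM in DU145, 7.07 and 7.26 in LNCaP, 0.71 and 0.97 in PC3, 0.82 and 0.60 in DUCAP and 1.23 and 0.46 in VCaP. The repeats of DU145 differed for it by 2.12 on the log2 scale, more than for any other of the 25 genes in any line. The step from LNCaP to PC3 (2.15, adjusted p = 0.011) passed and that from DU145 to LNCaP (0.19, adjusted p = 0.81) did not.

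The repeats of DU145 lay more than 1 log2 unit apart for TJP3 and CLDN4, and for 9.48% of all tested genes. None of the other 23 tested genes of the list had such a gap in any line, and the share of all genes was 0.902 to 2.12% in the other lines.

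The desmosomal cadherin genes form a cluster of 560 kb on chromosome 18 (30989365 to 31549008), in the order DSC3, DSC2, DSC1, DSG1, DSG3 and DSG2, and only its outer members were used. DSG2, the desmoglein of simple epithelia, was at 113 and 174 TPM in DU145, 65.7 and 67.5 in LNCaP, 32.0 and 31.9 in PC3, 25.2 and 33.7 in VCaP and 23.7 and 31.4 in DUCAP. It made up 99.7 to 100% of the desmoglein TPM in every line. The steps from DU145 to LNCaP (1.06, adjusted p = 0.0049) and from LNCaP to PC3 (1.04, adjusted p = 0.0052) passed, and the 3 lowest lines were not separated. DSG1 and DSG3, the desmogleins of skin and other stratified epithelia, reached at most 0.17 and 0.02 TPM, and DSC1, the desmocollin of the upper epidermis, at most 0.41 TPM.

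The neighbouring desmocollins DSC2 and DSC3 were used in different proportions. DSC2, the widespread form, was at 37.4 and 37.1 TPM in LNCaP, 15.0 and 24.9 in PC3, 14.7 and 18.1 in VCaP, 8.34 and 10.8 in DUCAP and 9.08 and 12.4 in DU145. DSC3, a form of basal and stratified epithelia, was at 18.1 and 20.5 TPM in PC3, 9.8 and 13.7 in VCaP, 3.84 and 4.87 in DUCAP, 2.01 and 2.07 in DU145 and 1.92 and 1.93 in LNCaP. LNCaP was thus highest for DSC2 and lowest for DSC3, although it was not separated from DU145 for DSC3 (0.06, adjusted p = 0.83). The 3 steps above that pair passed, with adjusted p = 0.012 from PC3 to VCaP, 0.0035 from VCaP to DUCAP and 0.0055 from DUCAP to DU145 (limma). DSC3 gave 49.9% of the desmocollin TPM in PC3, 41.0% in VCaP, 30.7% in DUCAP, 16.2% in DU145 and 4.89% in LNCaP. In PC3 its share was 54.7% in repeat 1 and 45.1% in repeat 2, so that DSC3 and DSC2 changed places.

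Among the plakophilins, PKP1 was widely split between the lines, and PKP2 and PKP3 less so. PKP1, typical of the upper layers of stratified epithelia, was at 141 and 120 TPM in PC3, 65.5 and 61.2 in VCaP, 45.3 and 60.03 in DUCAP, 1.57 and 1.5 in DU145 and 0.35 and 0.17 in LNCaP. The ranges of PC3, VCaP and DUCAP together did not overlap those of DU145 and LNCaP, so that this gene parted the lines across the grouping by growth without androgens. This split was read from the PKP1 values themselves. DU145 was below PC3 by 5.69 on the log2 scale (DU145 minus PC3 −5.69, standard error 0.18, adjusted p = 1.9e-07) and LNCaP was below DUCAP and VCaP by 5.54 (LNCaP minus DUCAP and VCaP −5.54, standard error 0.15, adjusted p = 7.7e-08, limma). PKP3, the broadly expressed form, was at 93.1 and 80.7 TPM in LNCaP, 40.4 and 42.7 in PC3, 32.2 and 43.8 in DU145, 42.5 and 31.3 in VCaP and 34.2 and 32.2 in DUCAP. LNCaP exceeded PC3 (1.04, adjusted p = 0.0019), and the other lines were not separated from their neighbours. PKP2, the form of heart and simple epithelia, ranged from 3.89 TPM in DU145 to 10.0 TPM in PC3, and none of its steps passed. Of the summed TPM of PKP1, PKP2 and PKP3, PKP1 made up 71.6, 58.4 and 57.5% in PC3, VCaP and DUCAP. PKP3 made up 92.6% in LNCaP and 86.2% in DU145. The summed level of these 3 genes was 182 ± 14.0 TPM in PC3, 109 ± 9.54 in VCaP, 93.7 ± 7.33 in LNCaP, 91.2 ± 9.71 in DUCAP and 44.0 ± 8.96 in DU145 (SD, n = 2). PKP4, which is outside the list, is not in these sums. Its mean was 43.0 TPM in LNCaP, 29.5 in DU145, 18.3 in PC3, 15.3 in VCaP and 13.1 in DUCAP. Counting PKP4 would lower the shares given and change the order of the sums.

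**Figure D3:**
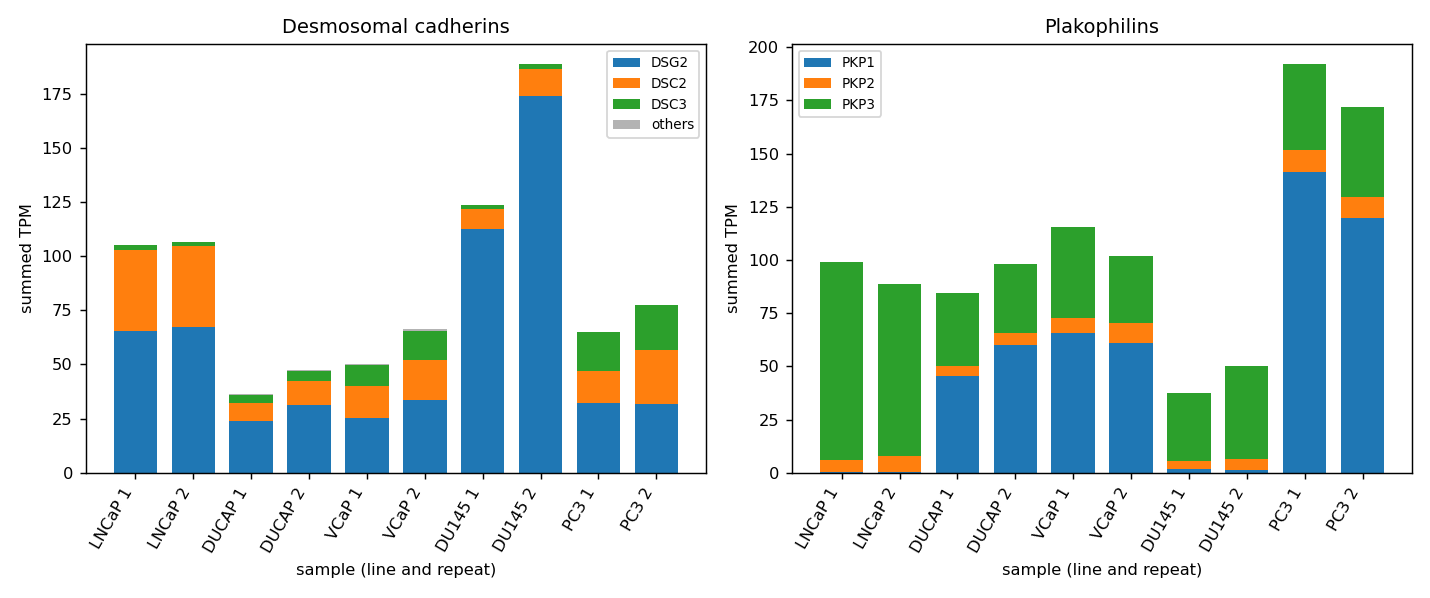
Stacked bars of the TPM of the desmosomal cadherins (left) and of PKP1, PKP2 and PKP3 (right) in each sample. DSG2 fills most of the cadherin bars of DU145, DSC3 is thickest in PC3, and PKP1 is visible in PC3, VCaP and DUCAP but hardly in LNCaP and DU145.

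Desmoplakin and PERP varied less than PKP1. DSP, the plaque protein that binds keratin filaments, was at 29.0 and 33.4 TPM in LNCaP, 18.5 and 17.9 in DU145, 15.3 and 18.1 in DUCAP, 15.5 and 15.8 in VCaP and 9.19 and 8.14 in PC3. Its steps at both ends passed, from LNCaP to DU145 (0.74, adjusted p = 0.0027) and from VCaP to PC3 (0.79, adjusted p = 0.0015). PERP, a membrane protein that desmosome assembly needs, was at 50.4 and 44.7 TPM in LNCaP, 33.1 and 34.7 in PC3, 20.4 and 23.7 in DUCAP, 20.8 and 21.7 in DU145 and 10.6 and 13.2 in VCaP. Of the 25 genes, it alone passed the threshold as higher in DUCAP than in VCaP (0.84, standard error 0.15, adjusted p = 0.0071, and 0.053 without DUCAP repeat 2).

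The first contrast asks how the junction genes differ between the lines that grow without androgens and those that respond to them. Of the 25 tested genes, 15 passed, against 74.4% of all tested genes. CLDN1, CLDN3, CLDN11, CLDN14, CLDN23, F11R, DSG2 and DSC3 were higher in DU145 and PC3 (8 genes, against 51.9% of all genes), and CLDN7, CLDN8, OCLN, MARVELD2, MARVELD3, CGN and DSP were lower (7 genes, against 22.5%). The median difference was 0.15 for the list and 0.40 for all tested genes. The split moved with the scaling, to 7 higher and 14 lower after median-ratio scaling, 7 and 15 after quantile normalization and 7 and 10 without mitochondrial genes, when the median of all genes was 0.02, −0.08 and 0.22 and the share of called genes that were higher was 52.1, 46.2 and 61.3% in place of 69.8%. DSC3 (0.43, adjusted p = 0.012) was the gene that left the higher group in each case, and its adjusted p was 0.051 without PC3 repeat 2. For several genes only 1 of the 2 lines stood apart. CLDN14 was listed at 0 in DU145. DSC3 in DU145 was not separated from LNCaP and was below DUCAP and VCaP. DSG2 and CLDN23 in PC3 were below LNCaP and not separated from DUCAP and VCaP. F11R in PC3 was not separated from LNCaP. For CLDN3 neither line stood above LNCaP, which exceeded PC3 and was not separated from DU145. Of the lower genes, CLDN7 and DSP in DU145 were not separated from DUCAP and VCaP, CGN in DU145 from none of the other 3 lines, and OCLN in DU145 was not separated from DUCAP and was above VCaP (0.56, adjusted p = 0.04). DSC2, PKP3 and TJP1 joined the lower group under all 3 scalings. All 4 samples of DU145 and PC3 lay above the other 6 for CLDN1 and CLDN11, 2 of 25 genes against 19.8% of all tested genes, and below them for CLDN8, MARVELD2 and MARVELD3, 3 of 25 against 6.92%.

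**Figure D4:**
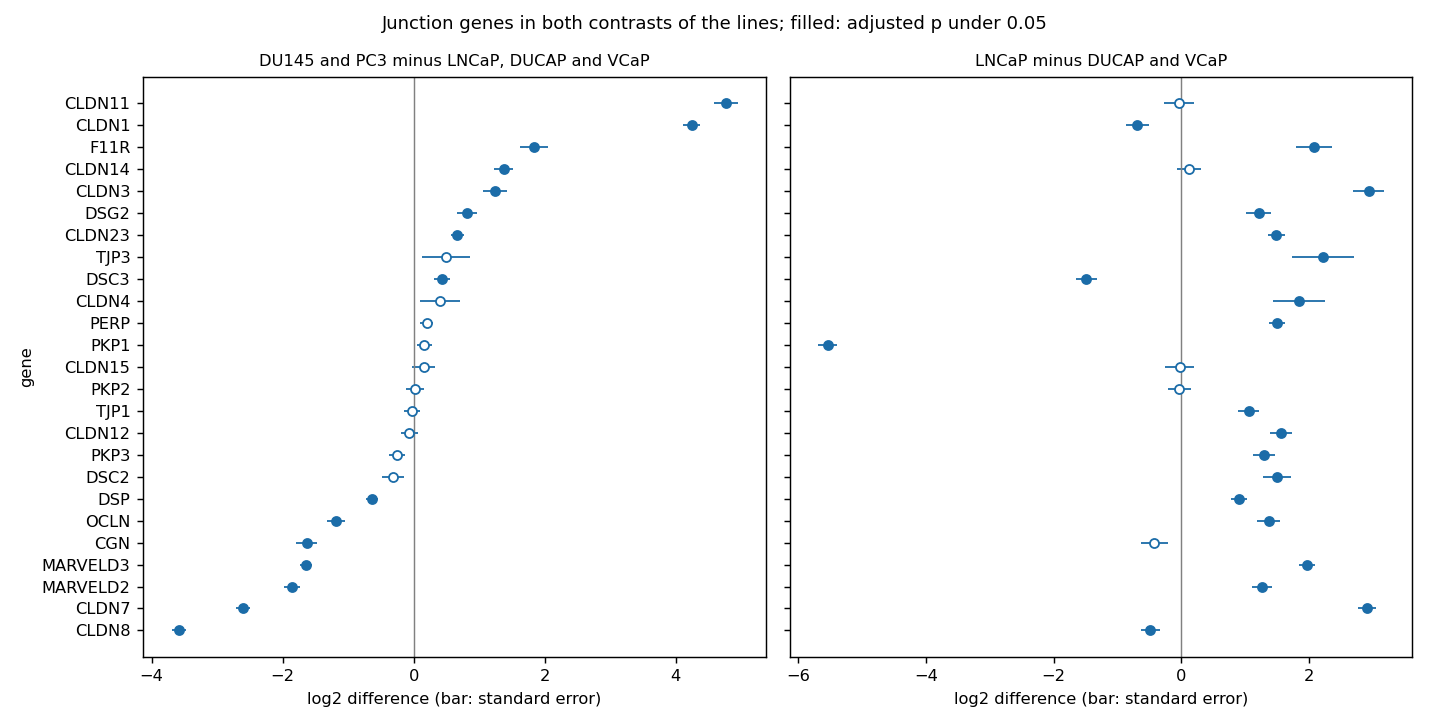
Log2 differences of the 25 tested genes with standard errors, for DU145 and PC3 against the other lines (left) and for LNCaP against DUCAP and VCaP (right), in the same gene order. Filled points passed the threshold (15 on the left, 20 on the right). CLDN11 and CLDN1 lie farthest right on the left side, and PKP1 is the outermost point on the right side, at −5.54.

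Within the lines that respond to androgens, LNCaP differed from the mean of DUCAP and VCaP in 20 of 25 genes, against 64.6% of all tested genes. It was higher for 16 (against 49.2%) and lower for 4 (against 15.5%), namely PKP1, DSC3, CLDN1 and CLDN8. The CLDN8 call (−0.49, adjusted p = 0.019) was lost without either LNCaP sample, without DUCAP repeat 2 and with a pseudocount of 0.1 (adjusted p = 0.053 to 0.099), and LNCaP lay below VCaP but above DUCAP for this gene. The CLDN1 call was lost without LNCaP repeat 2 (adjusted p = 0.068). The median difference was 1.26 for the list and 0.46 for all genes. After median-ratio scaling, quantile normalization and rescaling without mitochondrial genes the counts were 14 and 6, 15 and 7, and 16 and 5, with the share of all called genes that were higher at 51.3, 50.4 and 66.6% in place of 76.1%. CGN joined the lower group in each case, and the DSP call (0.91) was lost after median-ratio scaling (0.27, adjusted p = 0.061). DUCAP and VCaP differed in 5 of 25 genes (CLDN8, CLDN15, TJP1, DSC3 and PERP), against 18.3% of all genes, with 1 higher in DUCAP (against 4.24%) and 4 lower (against 14.0%). The TJP1 call (−0.73, adjusted p = 0.034) was lost when any sample of LNCaP, DUCAP, VCaP or PC3 was left out (adjusted p = 0.060 to 0.18), without the filter (adjusted p = 0.066) and after median-ratio scaling (−0.52, adjusted p = 0.077). DU145 and PC3 differed in 19 genes, against 49.3%, with 12 higher in DU145 (against 23.8%) and 7 lower (against 25.5%). The 7 were CLDN4, CLDN14, DSC2, DSC3, PKP1, PKP2 and PERP. The difference of DSC2 (−0.81, adjusted p = 0.03) was −0.60 without DU145 repeat 1 (adjusted p = 0.14) and −0.46 without PC3 repeat 2 (adjusted p = 0.21), and its call was also lost without either LNCaP sample (adjusted p = 0.058). The call of TJP3 was lost without either PC3 sample (adjusted p = 0.05 and 0.064), and that of TJP1 without PC3 repeat 2 (adjusted p = 0.10).

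A further 32 junction genes outside the list, chosen from their known place in tight junctions, polarity complexes and desmosomes, were read from the same fit, and 23 passed the filter. In DU145 and PC3 against the other lines, 10 were higher (against 51.9% of all tested genes) and 8 lower (against 22.5%). The counts were 8 and 11 after median-ratio scaling, 8 and 13 after quantile normalization and 9 and 9 without mitochondrial genes. Of all called genes, 52.1, 46.2 and 61.3% were higher under these scalings, in place of 69.8%. The largest increases were in PARD3, a polarity scaffold (2.67), which was at 38.6 and 42.3 TPM in DU145, 74.4 and 66.5 in PC3 and 2.14 to 16.9 TPM in the other 6 samples, and in PPL, periplakin (2.53, adjusted p = 8.5e-07 in limma). The largest decreases were in CGNL1, paracingulin (−2.31), and CXADR, the coxsackievirus and adenovirus receptor of tight junctions (−1.39). CXADR was at 0.54 and 1.01 TPM in PC3 and at 53.8 and 35.6 TPM in DU145, above the other 6 samples (15.9 to 30.4 TPM), so that the contrast averaged lines that lay at opposite ends.

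Factors that control epithelial junction genes were set beside the list. GRHL2, a Grainyhead-like factor that activates claudin genes, was at 33.3 to 48.0 TPM in the 6 samples of LNCaP, DUCAP and VCaP and at most 0.09 TPM in DU145 and PC3. ESRP1, an epithelial splicing factor, was at 36.7 to 83.9 TPM in the former, 4.11 and 4.40 in DU145 and 0.60 and 0.25 in PC3, and OVOL1, a repressor of mesenchymal genes, at 2.01 to 7.84 TPM in the former and at most 0.13 TPM in DU145 and PC3. ZEB1, a repressor of epithelial genes, was at 8.02 and 7.81 TPM in DU145, 14.4 and 13.6 in PC3 and at most 0.02 TPM in the other 6 samples. CLDN3, CLDN4, CLDN11, F11R, TJP1, DSG2, PKP3 and PERP were at 20.8 TPM or more in every sample of DU145 and PC3, and no other gene of the list was. This level was not set in advance and is the lowest value of these genes in those samples. The 5 junction genes without overlap were picked for the same division of the samples, which is no separate result. The part of these factors in the junction gene levels was not tested.

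**Figure D5:**
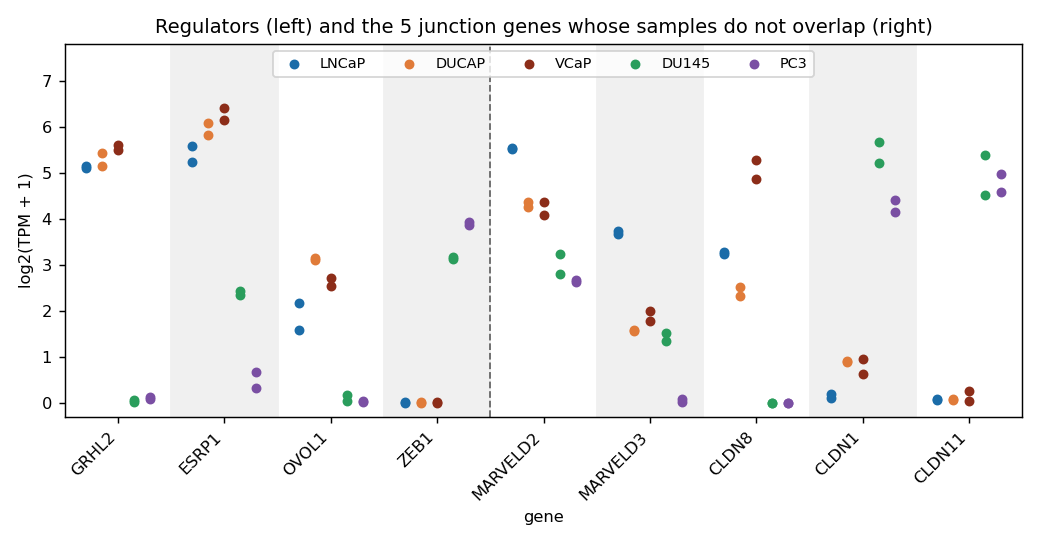
Levels of 4 regulators (left of the dashed line) and of the 5 junction genes whose DU145 and PC3 samples did not overlap the other samples (right), as log2(TPM + 1) with 1 point per sample. GRHL2, ESRP1 and OVOL1 are low and ZEB1 is present in DU145 and PC3.

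To show what letters lie before these genes, the 250 bases before each annotated start were read from RefSeq's promoters of GRCh38.p14, which held 41 windows for 27 of the 36 genes. CLDN5, CLDN8, CLDN9, CLDN19, CLDN23, F11R, MARVELD3, PKP2 and PKP3 did not match. The windows were searched for the E-box letters CACCTG, which SNAI and ZEB factors bind, on both strands (CAGGTG on the other strand), and for the Grainyhead-like palindrome AACCGGTT. The 2 motifs do not overlap. E-box letters were in 11 of the 41 windows, for 10 genes, against 17.5% of all 35116 windows. The palindrome was in 0 of the 41, against 0.117%. CLDN7 had 4 E-box matches before its inner start, where 0.464% of all windows held 3 or more. It is printed with DSP, which like DSG2 had 2, and with MARVELD2 and CLDN1, which had none. MARVELD2 and CLDN1 differed in opposite directions in DU145 and PC3. The windows printed for CLDN7, DSP, MARVELD2 and CLDN1 are chr17:7262479-7262728 (minus strand), chr6:7541421-7541670 (plus strand), chr5:69414866-69415115 (plus strand) and chr3:190322447-190322696 (minus strand), in this order. They are written 5′ to 3′ in lower case with the E-box letters in capitals.
CLDN7: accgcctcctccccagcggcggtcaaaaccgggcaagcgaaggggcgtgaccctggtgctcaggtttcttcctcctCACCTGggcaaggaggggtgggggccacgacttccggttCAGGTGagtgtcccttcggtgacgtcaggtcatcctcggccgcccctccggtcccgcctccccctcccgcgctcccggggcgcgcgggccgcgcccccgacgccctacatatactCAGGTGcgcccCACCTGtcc
DSP: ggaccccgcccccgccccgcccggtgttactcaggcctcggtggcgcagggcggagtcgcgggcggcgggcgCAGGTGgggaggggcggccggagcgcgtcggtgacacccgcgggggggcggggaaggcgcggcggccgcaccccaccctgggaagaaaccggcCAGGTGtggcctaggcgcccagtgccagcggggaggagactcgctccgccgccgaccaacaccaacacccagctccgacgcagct
MARVELD2: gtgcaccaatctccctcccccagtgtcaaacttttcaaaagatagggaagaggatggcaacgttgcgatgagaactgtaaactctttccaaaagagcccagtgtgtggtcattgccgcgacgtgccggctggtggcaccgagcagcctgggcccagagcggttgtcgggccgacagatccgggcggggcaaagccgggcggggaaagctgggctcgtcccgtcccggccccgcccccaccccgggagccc
CLDN1: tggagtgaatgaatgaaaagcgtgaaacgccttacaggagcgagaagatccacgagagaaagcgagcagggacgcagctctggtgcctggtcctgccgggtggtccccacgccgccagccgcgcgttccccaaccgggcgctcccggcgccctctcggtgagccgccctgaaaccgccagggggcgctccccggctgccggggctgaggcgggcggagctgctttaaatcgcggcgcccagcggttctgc

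In DU145 and PC3 against the other lines, CLDN7 was lower by a log2 difference of −2.61 (adjusted p = 1.7e-07), DSP by −0.63 (adjusted p = 0.00033) and MARVELD2 by −1.86, and CLDN1 was higher by 4.24 (limma). DSG2, whose window is not printed and held as many E-box matches as that of DSP, was higher by 0.82 (adjusted p = 0.0012, limma). The difference of CLDN7 came with a level in DU145 that was not separated from that in DUCAP, and a far lower one in PC3. A match is a description of the letters and not of a bound site.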

How the data were processed

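RNA of 10 untreated samples of 5 prostate cancer lines was sequenced from polyA-enriched, strand-specific libraries. Per the labels and the paper's methods, the authors trimmed the reads with Trim Galore 0.6.5 after FastQC 0.11.9, aligned them with STAR 2.7.2b to GRCh38, quantified genes with RSEM 1.3.3 and deposited TPM per sample and gene symbol, without pooling repeats. Column sums were 982880 to 991998 TPM. TPM keep no sequencing depth, so no counting interval or detection floor was computed. Lines and repeat numbers were taken from the labels.

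TPM were transformed to log2(TPM + 1). The 17520 genes reaching 1 TPM in 2 or more samples were fitted in limma 3.58.1 (R 4.3.3) with a mean for each line and an intensity trend (trend = TRUE). Benjamini-Hochberg adjusted p-values under 0.05 were called, for the F test, 4 contrasts and the pairwise differences. The study's methods state no such test. Genes with a mean of at least 10 TPM in a line are given in every sample. From the 32 further genes, the 2 largest called changes in each direction of the first contrast were named, and GRHL2, ESRP1, OVOL1 and ZEB1 were always given. The members and lists were chosen with earlier results of these data known. PALS1 was matched by its older symbol MPP5. Where lines tied at 0, the first in the order LNCaP, DUCAP, VCaP, DU145, PC3 counted as highest or lowest. On simulated data for the first contrast (17520 genes, 200 changed by 1.5 on the log2 scale), 92.0% were recovered, 0 with the wrong sign, and 3.16% of called genes were false. In the measured data 74.4% of the tested genes passed this contrast, far more than were changed there, so these rates need not hold for them. Alternatives were another pseudocount (0.1), no filter or a filter at 5 TPM, 3 scalings, no trend, the repeat number as a covariate, a threshold of 1 on the log2 scale and each sample left out in turn. Tools were Python 3.11.15, numpy 2.4.6, pandas 2.3.3 and matplotlib 3.10.9. Coordinates and promoters are from RefSeq (GRCh38.p14).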

Additional observations from a re-analysis of the deposited data

How the results depend on the processing

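The number of junction genes that differed between DUCAP and VCaP (5) was 3 when a difference of at least 1 on the log2 scale was also required, and 2 to 6 when 1 sample at a time was dropped. Leaving out LNCaP repeat 1, LNCaP repeat 2, DUCAP repeat 1 or VCaP repeat 1 gave 3 and leaving out DUCAP repeat 2 gave 2. The neighbouring steps that passed (41) fell to 27 with the same requirement, and were 34 to 46 without 1 sample. The total called in the F test and in the other 3 contrasts stayed within 1.5 times under every alternative, but their split by direction did not: the genes lower in DU145 and PC3 rose from 7 to 14 and 15, and those lower in LNCaP from 4 to 6 and 7, after median-ratio scaling and quantile normalization. Without 1 sample they were 24 to 25 in the F test, 15 to 18 for DU145 and PC3 against the other lines, 18 to 20 for LNCaP against DUCAP and VCaP, and 15 to 19 for DU145 against PC3. In a fit without 1 sample, the lone repeat is assumed to vary like the other lines.

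DSC3 was higher in DU145 and PC3 as reported (0.43) and lower after quantile normalization (−0.14, adjusted p = 0.34, limma). The cause was not tested. Of 72 called differences of 30 named genes, each under 18 alternatives (1296 values), 1241 kept their direction and side of the threshold, 54 kept their direction only and 1 was reversed. CLDN4 in DU145 against PC3 (−1.47) lost its call without the filter, after quantile normalization, without mitochondrial genes and without any 1 of the LNCaP, VCaP or PC3 samples (adjusted p = 0.051 to 0.14, limma). The number of genes for which DUCAP was lowest moved from 11 to 2, 1 and 5 under the 3 scalings. The share over all genes moved from 37.1% to 19.8, 15.7 and 32.2%.

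In the fit with a replicate block, which added the repeat number, 25 genes passed in the F test, 16 genes passed for DU145 and PC3 against the other lines, 20 for LNCaP against DUCAP and VCaP, 6 for DUCAP against VCaP, 19 for DU145 against PC3 and 42 of the neighbouring steps, and the block changed only the calls of DSC2 among the 4 contrasts (−0.31 and −0.72). The labels tie no repeats of different lines together, and the deviations of the same-numbered repeats from their line means correlated with r between −0.191 and 0.249 in the 10 pairs of lines (mean 0.00922), so the numbers were not used as pairs. With 2 repeats per line, no sample could be tested for standing apart within its line, and TPM leave the precision of the genes near 0 unknown.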

Other observations

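CRB3, which encodes the apical polarity protein Crumbs3, was singled out after its values were seen. CRB3 was at 0.70 and 0.83 TPM in PC3, 34.9 and 26.0 in DU145, 36.2 and 31.5 in LNCaP, 5.44 and 5.69 in DUCAP and 4.81 and 3.40 in VCaP, so that both PC3 samples lay below the other 8.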
